A study of Rattus norvegicus with 12 samples.

Results

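MHC class I genes of the rat and the machinery that loads them with peptide were followed in mesenteric lymph nodes, which drain the gut. The nodes came from suckling pups given conjugated linoleic acid (CLA) and from pups without it. The genes were RT1-A, RT1-A3, RT1-CE5, RT1-CE10, RT1-CE12, RT1-CE16, B2m, Tap1, Tap2 and Tapbp. Every probe set (a set of short probes on the array that reads 1 transcript or a few related ones) that the platform annotation gives to 1 of these symbols was taken. This gave 17 of 31099 probe sets for 10 genes, 11 for RT1 heavy chains and 6 for B2m and peptide loading. A further 3 probe sets carry a listed symbol together with other RT1 symbols and are described apart. The genes were chosen on their log2 differences between the groups on these same 12 arrays, so their values are given as a description, without a test.

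MHC class I molecules display peptides from the inside of the cell to CD8 T cells and natural killer cells. Each consists of a heavy chain, encoded in the rat by the RT1-A and RT1-C/E regions, and the light chain beta-2 microglobulin. The heavy chains are among the most polymorphic genes of the genome, and strains differ both in their alleles and in which RT1 genes they carry. Proteasomes cut the peptides, the TAP transporter carries them into the endoplasmic reticulum, and tapasin holds the empty class I molecule beside TAP until a peptide fits. Lymphocytes carry much class I on their surface, and interferons are known to raise the whole pathway.

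Each group had 3 Wistar pups with 1 Affymetrix Rat Genome 230 2.0 array per pup, 12 arrays in all. Pups of group A had CLA for 5 weeks, through a dam that ate a diet with 1% CLA in the last 2 weeks of gestation and the 3 weeks of suckling. Group B also had 5 weeks of CLA, but the dam ate the 1% CLA diet in gestation only and the pup was gavaged daily while suckling. Group C had 3 weeks of CLA, all by gavage while suckling, from a dam on standard diet, and in group D dam and pup had no added CLA. Arrays are called by group and replicate number, so that D3 is replicate 3 of group D. Litters and RT1 genotypes of the pups are not given in the sources used here.

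Signals are log2 values after quantile normalization, which gives all arrays the same distribution, and 1 unit is a doubling. Background, the 95th percentile of the 27 control probe sets whose spike was left out, lay between 2.33 and 3.20. Array D3 stood apart: over 31042 probe sets its mean correlation was 0.931 with group B and 0.930 with group C, against 0.896 with the other arrays of group D. For the class I genes, differences from group D are therefore also given without 1 array where that moved them by over 1.5 times, and without D3 for the widest. All 6 measured T cell markers and all 3 measured B cell markers were above background on every array. In whole nodes, fewer cells of a type and less RNA per cell cannot be told apart.

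The promoters of the class I genes show what the family shares and where its members part. RefSeq windows on assembly GRCr8, from 250 bases before to 50 bases after the annotated start, were at hand for 9 of the 10 genes and come from a reference genome, not from these Wistar pups. The 42-base stretches below are aligned on an interferon element of class I promoters, with the block known as enhancer A before it. They are chr20:4849274-4849315 on the plus strand for RT1-A3 and, on the minus strand, chr20:3385140-3385181 for RT1-CE10, chr20:3265540-3265581 for RT1-CE16 and chr20:3484223-3484264 for RT1-CE5. Capitals mark exact matches to GGGATTCCC (the core of enhancer A) and TTTCACTTC (the core of the class I interferon element), each searched on both strands.
RT1-A3: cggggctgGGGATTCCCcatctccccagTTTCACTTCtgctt
RT1-CE10: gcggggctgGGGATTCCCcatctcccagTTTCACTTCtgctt
RT1-CE16: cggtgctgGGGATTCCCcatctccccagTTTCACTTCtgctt
RT1-CE5: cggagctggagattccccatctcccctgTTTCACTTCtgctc
The enhancer A core was found in 0.365% and the class I interferon core in 0.469% of 33469 promoter windows of the same length. Their first bases lay at -169 and -149 relative to the start in RT1-A3, at -193 and -174 in RT1-CE10, and at -130 and -110 in RT1-CE16. RT1-CE5 held the interferon core at -146 but did not match the enhancer A core exactly. The motifs were chosen after the promoters had been read, and a match is a description, not a site at which binding was measured.

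RT1-CE12 had no match to any of the 4 motifs searched in its 300 bases, shown here as annotated at chr20:3347176-3347475 on the minus strand.
RT1-CE12: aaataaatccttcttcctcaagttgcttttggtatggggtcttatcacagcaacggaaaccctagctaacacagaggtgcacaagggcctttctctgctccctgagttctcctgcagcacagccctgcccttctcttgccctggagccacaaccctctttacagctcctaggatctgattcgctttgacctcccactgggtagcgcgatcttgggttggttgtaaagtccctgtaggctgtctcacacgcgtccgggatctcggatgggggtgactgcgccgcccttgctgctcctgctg
The 300 bases of RT1-CE10, chr20:3384930-3385229 on the minus strand, are shown for comparison with both cores in capitals.
RT1-CE10: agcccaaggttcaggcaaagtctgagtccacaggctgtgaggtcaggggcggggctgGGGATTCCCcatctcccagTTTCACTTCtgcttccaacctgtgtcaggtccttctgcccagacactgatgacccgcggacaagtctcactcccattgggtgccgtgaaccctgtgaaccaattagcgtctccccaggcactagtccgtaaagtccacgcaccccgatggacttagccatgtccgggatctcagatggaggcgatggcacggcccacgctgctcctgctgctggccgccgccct
The other motifs were CCAATCAG (a CCAAT pattern, in 3.5% of all windows) and GAAANNGAA (the core of a general interferon element, in 9.71%). CCAATCAG lay at -51 in RT1-A3, -48 in RT1-CE5 and -12 in RT1-CE16, and was not matched in RT1-CE10.

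B2m and the 3 genes of peptide loading held the general interferon core GAAANNGAA, which no RT1 window matched. The class I interferon core TTTCACTTC, read on the other strand, is a near form that this pattern cannot match. The general core lay at -150 in B2m, -120 in Tap1 (on the other strand), -41 in Tap2 and -26 in Tapbp. In Tapbp a further match overlaps the first. In Tap2 the class I interferon core also matched, on the other strand at -46, and overlaps the general one. Capitals mark the general core below, or its reverse complement. The stretches are chr3:129549165-129549204 (plus strand) for B2m and, on the minus strand, chr20:4668639-4668678 for Tap1, chr20:4652313-4652352 for Tap2 and chr20:4967879-4967918 for Tapbp.
B2m: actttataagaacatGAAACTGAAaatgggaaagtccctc
Tap1: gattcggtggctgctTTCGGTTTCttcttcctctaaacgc
Tap2: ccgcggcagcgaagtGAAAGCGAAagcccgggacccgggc
Tapbp: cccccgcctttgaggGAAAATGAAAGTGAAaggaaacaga
Tap1 starts 457 bases from Psmb9, the gene of an immunoproteasome subunit, and is read on the opposite strand.

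The RT1 heavy chains differed between arrays far more than the light chain did. RT1-CE10, a class I gene of the RT1-C/E region, was read by probe set 1388203_x_at. Its log2 signal was 10.61, 10.27 and 10.58 on the A arrays, 6.61, 6.35 and 6.63 on the B arrays, 10.26, 9.67 and 9.94 on the C arrays, and 6.82, 6.59 and 9.77 on the D arrays. The values fell on either side of a gap of 2.84: all arrays of groups A and C and array D3 lay between 9.67 and 10.61, and all arrays of group B with D1 and D2 between 6.35 and 6.82. The mean of group A was 2.76 above that of group D, a 6.79-fold difference, and 3.78 above it without D3. Group B was 1.19 below group D (difference -1.19), which became -0.17 without D3, and group C was 2.23 above group D, or 3.25 without D3. Between the groups with the same 5 weeks of CLA, A stood 3.96 above B, or 15.5-fold. B minus C was -3.43, with all 3 arrays of group B below all 3 of group C. The order of the means was A, C, D and B. Arrays of A and C nearly met, at 10.27 and 10.26, and the wide group D overlapped both C and B. The SD over the 12 arrays was 1.86, and of 10860 probe sets with a mean log2 signal of at least 6 only 0.12% had a larger one.

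**Figure D1:**
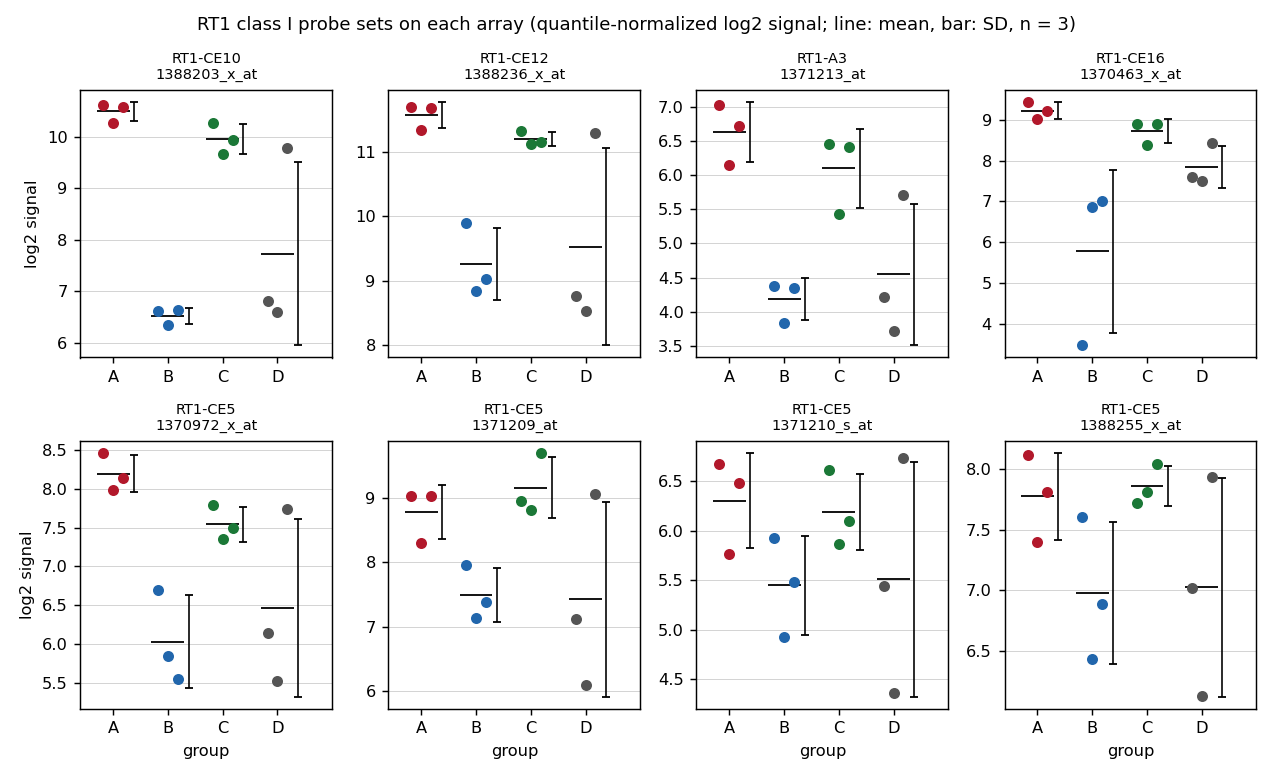
Quantile-normalized log2 signal (vertical axes, each on its own scale) of 8 RT1 class I probe sets in groups A, B, C and D; points are arrays, lines are means and bars are SD (n = 3 per group). In the probe sets of RT1-CE10, RT1-CE12 and RT1-A3 array D3 lies with groups A and C, while the other arrays of group D lie with group B.

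RT1-CE12, of the same region, was the brightest single-symbol RT1 probe set, with 1388236_x_at at 11.70, 11.34 and 11.68 on the A arrays. It read 9.89, 8.84 and 9.03 on the B arrays, 11.32, 11.12 and 11.15 on the C arrays, and 8.76, 8.53 and 11.29 on the D arrays. The same 7 arrays as in RT1-CE10, those of A and C with D3, lay above a gap of 1.23 and the other 5 below it. The difference A minus D was 2.05 (2.93 without D3), C minus D 1.67 (2.55 without D3) and B minus D -0.27 (0.61 without D3 and -0.77 without D2). A minus B was 2.32 and B minus C -1.95, without overlap in either.

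RT1-A3, a gene of the RT1-A region, had 2 probe sets of very different brightness. Probe set 1371213_at read 7.02, 6.15 and 6.72 on the A arrays, 4.38, 3.84 and 4.35 on the B arrays, 6.45, 5.43 and 6.41 on the C arrays, and 4.21, 3.72 and 5.71 on the D arrays. Once more the arrays of A and C with D3 were the 7 high ones, here above a gap of 1.05. Groups A and C overlapped, as did D with both C and B. A minus D was 2.08 (2.66 without D3) and A minus B 2.44. The second probe set, 1388256_at, was above background on only 3 of 12 arrays and shows no level that can be compared.

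RT1-CE16, read by 1370463_x_at, had 9.44, 9.02 and 9.21 on the A arrays, 3.47, 6.85 and 7.0 on the B arrays, 8.89, 8.39 and 8.89 on the C arrays, and 7.60, 7.49 and 8.43 on the D arrays. Here group B lay below every array of group D, and array B1 stood 3.38 below the next lowest. B minus D was -2.07, but -0.92 without B1, and A minus B was 3.45, or 2.30 without it. A minus D was 1.38 with no overlap, and C minus D was 0.88 with D3 inside the range of group C.

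RT1-CE5 had 5 probe sets, of which 4 were above background on all arrays and 1388254_a_at on none. The one with the widest difference between groups A and D, 1370972_x_at, read 8.46, 7.99 and 8.14 on the A arrays, 6.70, 5.84 and 5.55 on the B arrays, 7.79, 7.35 and 7.49 on the C arrays, and 6.14, 5.52 and 7.74 on the D arrays. It split the arrays as RT1-CE10 did, and A minus D was 1.73 (2.37 without D3). Probe set 1371209_at had 9.02, 8.30 and 9.03 on the A arrays, 7.96, 7.13 and 7.38 on the B arrays, 8.95, 8.81 and 9.69 on the C arrays, and 7.12, 6.09 and 9.06 on the D arrays. There group C was the highest, 1.73 above D (2.54 without D3 and 1.06 without D2), and A overlapped D through D3. The remaining pair, 1371210_s_at and 1388255_x_at, spanned 4.36 to 6.73 and 6.13 to 8.11, with A minus D of 0.79 and 0.74 and overlap between these groups. Without D3 these were 1.40 and 1.20, and without D2 0.21 and 0.30. Their A minus B differences, 0.85 and 0.79, were smaller than the 2.17 of 1370972_x_at, so the probe sets of 1 gene gave different sizes.

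RT1-A, whose product is the main class I molecule of the rat, ran the other way on its only probe set without other symbols. Its probe set 1370429_at read 5.57, 5.77 and 5.26 on the A arrays, 8.63, 7.45 and 7.65 on the B arrays, 4.25, 7.54 and 4.15 on the C arrays, and 7.85, 7.36 and 8.13 on the D arrays. The 5 low arrays, between 4.15 and 5.77, were all of group A with C1 and C3, and the 7 others lay above a gap of 1.59. A minus D was -2.25 and A minus B -2.38, with no overlap in either. C minus D was -2.47 and B minus C 2.60, and without C2 these were -3.58 and 3.71.

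Set against RT1-CE10, the RT1-A signal placed the arrays in 3 combinations. All of group B with D1 and D2 had high RT1-A and low RT1-CE10, and all of group A with C1 and C3 had low RT1-A and high RT1-CE10. Arrays C2 and D3, from different groups, had high signal for both. No array was low for both. The probes are short stretches designed on known RT1 sequences. Probe sets of RT1-CE10, RT1-CE12, RT1-A3 (1371213_at) and RT1-CE5 (1370972_x_at) rose and fell together, with pairwise Pearson r of 0.95 to 0.98. Whether each reads its own transcript alone was not tested. Their common split therefore cannot be taken as separate readings of several genes. Whether the pups differed in RT1 alleles, and what part that had in these signals, was not tested.

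**Figure D2:**
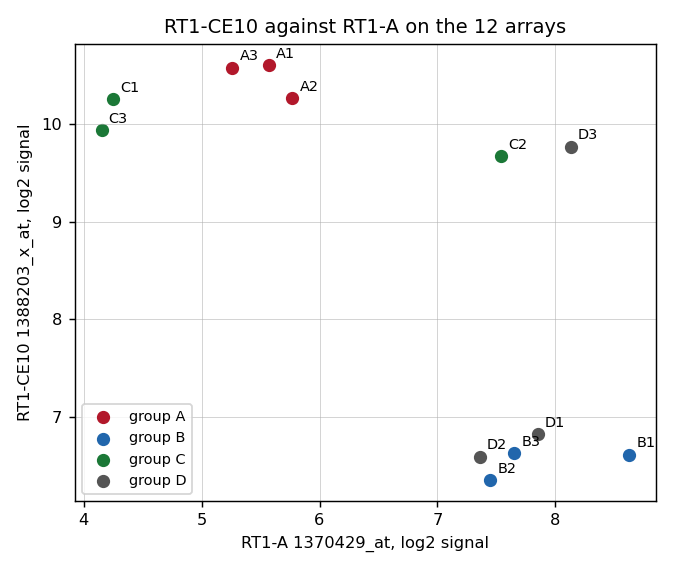
Log2 signal of RT1-CE10 (1388203_x_at, vertical axis) against RT1-A (1370429_at, horizontal axis) on the 12 arrays, each point labelled by its array and coloured by group. Arrays C2 and D3 are the only ones high on both axes, at 7.54 and 8.13 for RT1-A and 9.67 and 9.77 for RT1-CE10.

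The 3 probe sets with several RT1 symbols showed neither pattern in full. Probe set 1370428_x_at (RT1-A3 and RT1-A2) was bright and even, between 10.37 and 11.73 with overlap in all 5 comparisons and A minus D of -0.34 (-0.11 without D3 and -0.60 without D2). Probe set 1371078_at (RT1-A with 4 RT1-CE symbols) lay between 6.38 and 7.88, with A minus D of 0.18 (0.54 without D3 and -0.21 without D2). Probe set 1371267_at (RT1-A, RT1-CE16 and RT1-A1) had 5.23, 5.53 and 4.90 on the A arrays, 5.14, 3.33 and 3.58 on the B arrays, 3.27, 2.26 and 3.18 on the C arrays, and 4.45, 4.26 and 1.55 on the D arrays. It was lowest on C2 and D3, the arrays that were high for both RT1-A and RT1-CE10, and there it was within background.

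B2m, the light chain shared by all class I molecules, was the steadiest gene of the set. Probe set 1367595_s_at read 12.27, 12.33 and 12.44 on the A arrays, 12.46, 12.41 and 12.55 on the B arrays, 12.45, 12.44 and 12.44 on the C arrays, and 12.41, 12.27 and 12.40 on the D arrays. All 12 values lay within 0.28. Of the 10860 probe sets with a mean of at least 6, 99.6% had a larger SD than the 0.08 of this probe set. Quantile normalization gives each rank the same value on every array, and the SD was not compared among probe sets of like brightness. A minus D was -0.02, B minus D 0.11 and C minus D 0.08, and with any 1 array left out they lay between -0.06 and 0.02, 0.07 and 0.14, and 0.03 and 0.10. With 75th percentile centring B minus D was -0.17 and C minus D -0.04, so that both signs turned, where the medians of all probe sets were -0.04 and -0.06. The second B2m probe set, 1371440_at, read 10.73, 10.58 and 10.68 on the A arrays, 11.22, 11.04 and 11.15 on the B arrays, 11.08, 10.99 and 11.02 on the C arrays, and 10.87, 10.70 and 11.35 on the D arrays. Its A minus B difference was -0.47 without overlap, and 0.25 on the values as deposited, where the median of all probe sets was 0.39.

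Tap2, which with Tap1 forms the peptide transporter, split the arrays as the RT1-C/E genes did, within a narrower range. Probe set 1368732_at read 8.40, 8.20 and 8.43 on the A arrays, 6.78, 6.94 and 6.43 on the B arrays, 8.19, 7.73 and 7.84 on the C arrays, and 7.28, 7.13 and 7.92 on the D arrays. The arrays of A and C with D3 lay between 7.73 and 8.43, and group B with D1 and D2 between 6.43 and 7.28. A minus D was 0.90 (1.14 without D3), a 1.87-fold difference, and B minus D was -0.72 (-0.49 without D3), neither with overlap. A minus B was 1.63 and B minus C -1.20. C minus D was 0.48 (0.71 without D3), and -0.20 on the values as deposited, where the median of all probe sets was -0.70. The gene lies in the class II part of the RT1 complex and its rat alleles differ between strains, which for this probe set was not tested.

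Tap1 gave a different order. Probe set 1388149_at read 8.40, 8.16 and 8.37 on the A arrays, 7.62, 7.12 and 7.43 on the B arrays, 7.28, 7.42 and 7.44 on the C arrays, and 7.94, 7.47 and 7.92 on the D arrays. Group A was above all other arrays, groups B and C overlapped almost entirely, and group D lay between. A minus D was 0.53, A minus B 0.92, C minus D -0.40 and B minus C 0.01. The second Tap1 probe set, 1375379_at, was dim, between 2.68 and 4.80, and overlapped in all 5 comparisons.

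Tapbp, the gene of tapasin, resembled Tap1 in its order. It read 8.32, 8.64 and 8.32 on the A arrays, 7.83, 7.82 and 7.46 on the B arrays, 7.68, 7.87 and 7.22 on the C arrays, and 8.44, 8.03 and 7.59 on the D arrays. A minus B was 0.73 without overlap, and A minus D was 0.40, with D1 inside the range of group A (0.19 without D3 and 0.61 without D1). B minus D was -0.32 (-0.54 without D3 and -0.11 without D1) and C minus D -0.43 (-0.65 without D3 and -0.22 without D1), with overlap.

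**Figure D3:**
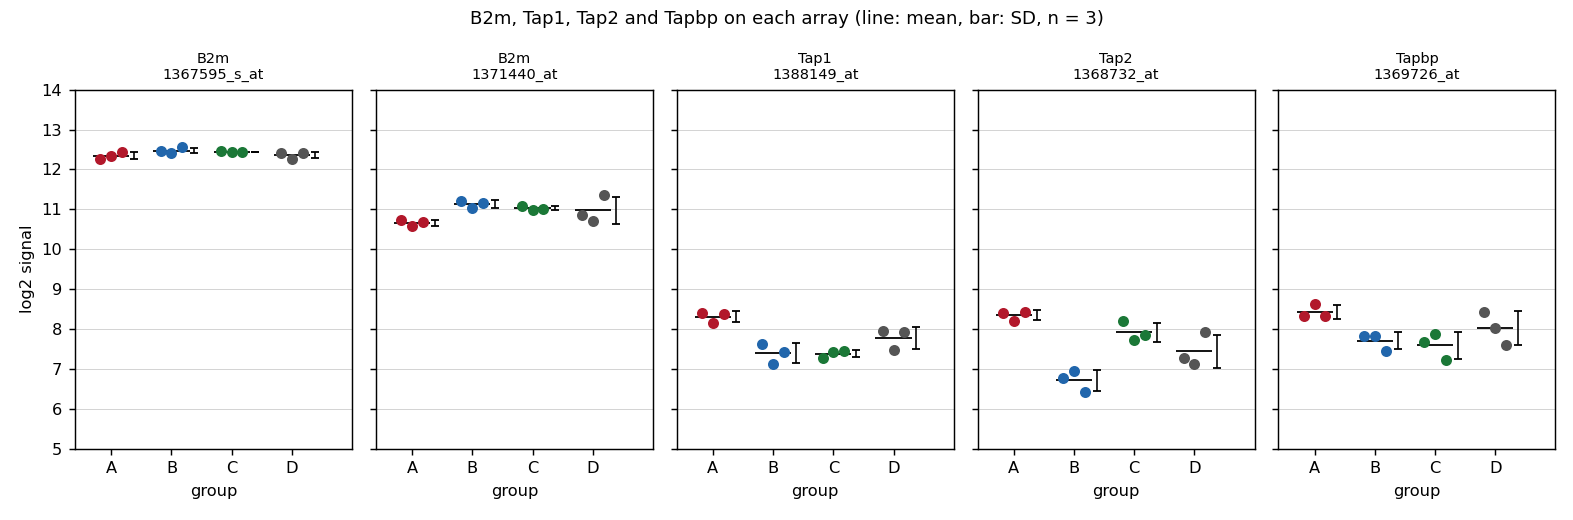
Log2 signal (shared vertical axis) of B2m, Tap1, Tap2 and Tapbp probe sets in groups A, B, C and D; points are arrays, lines are means and bars are SD (n = 3 per group). B2m stays within 0.28 on 1367595_s_at, Tap2 is lowest in group B, and Tap1 is highest in group A.

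Counted over the 17 probe sets, the arrays of A lay wholly above those of D in 7 and wholly below in 1, where 19.2% and 14.6% of all 31042 probe sets did so. For B against D the arrays were apart in 0 upward and 2 downward (6.7% and 7.92% of all). For C against D 1 lay apart upward and 1 downward (6.82% and 8.1% of all). In A against B the arrays were apart upward in 9 and downward in 2 (26.5% and 21.1% of all). In B against C 8 lay apart downward and 0 upward (5.46% and 5.28% of all). Since the genes were chosen with these contrasts known, nothing is read from the counts. The median difference of the 17 was 0.74 for A minus D, -0.06 for B minus D, 0.81 for C minus D, 0.85 for A minus B and -0.74 for B minus C. Over all probe sets the medians were 0.07, -0.04, -0.04, 0.10 and 0.00. The first 3 comparisons share the arrays of group D.

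**Figure D4:**
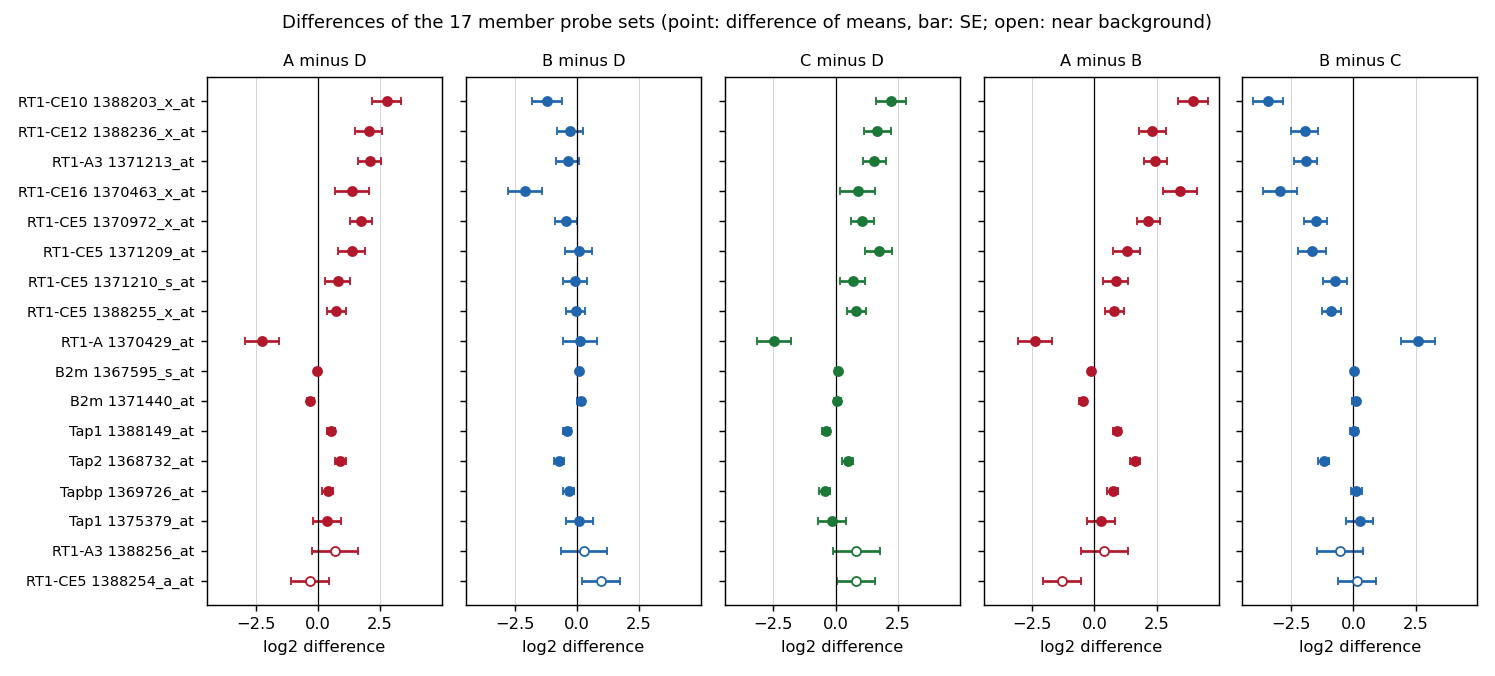
Log2 differences between group means (horizontal axis) of the 17 probe sets, 1 panel per comparison; points are differences, bars are standard errors of the fit and open points are the 2 probe sets at or near background. RT1-A lies opposite the other bright RT1 probe sets in every panel but B minus D, and the B2m points lie near 0.

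Other class I genes of the RT1 complex were read by 12 probe sets. Only 1 passed an adjusted p under 0.05 in the limma fit, RT1-N3 in group A against group B, with a difference of 1.08 (adjusted p = 0.0224, and 0.0974 without B2), where 16.8% of all probe sets were higher and 14.5% lower. In A against D 0 of the 12 passed (10.1% of all higher and 10.2% lower), and likewise 0 in B against D (0.00644% and 0.00966%), C against D (0.0226% and 0.029%) and B against C (0.00322% and 0%). An unadjusted limma p under 0.05 was reached by 1 of 12 in A against D (31.7% of all), 0 in B against D (15.8%), 1 in C against D (17.7%), 3 in A against B (40.4%) and 4 in B against C (4%). RT1-T24-4 was singled out after its values were seen. Its probe set 1389734_x_at read 3.51, 7.35 and 3.52 on the A arrays, 9.50, 8.17 and 8.16 on the B arrays, 2.16, 9.04 and 3.59 on the C arrays, and 9.45, 9.19 and 7.88 on the D arrays. Like RT1-A it was low on A1, A3, C1 and C3 and high on C2, but unlike RT1-A it was high on A2.

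Genes of the same pathway outside the set were taken from a list of 72, of which 69 had a probe set, and the brightest probe set stood for each. Group A differed from group D in 27 of them at an adjusted p under 0.05 (limma, adjusted over all probe sets). Of these 9 rose and 18 fell, beside 16% and 12% of all 14217 genes. Most that fell came from the lists of peptide trimming, of chaperones and folding, or of interferon signal and response. The last of these lists also held rises. The median difference of the 69 was 0.14, against 0.15 over all genes. Against group B the counts were 20 and 18 (26.9% and 15% of all genes), with a median of 0.25 against 0.30. In B against D 0 of 69 passed, where 0.00703% of all genes were higher and 0.0141% lower. In C against D 0 passed as well (0.00703% and 0.0352% of all), and in B against C 0 of 69 and 0% of all genes. Without D3 the limma fit passed 5 up and 7 down in B against D and 7 up and 11 down in C against D. In the same fits 7.15% of all genes were higher and 12.8% lower in B against D, and 8.04% higher and 15% lower in C against D. With D3, at an unadjusted p under 0.05 there were 6, 19 and 3 genes in these comparisons, beside 17%, 19.6% and 3.9% of all.

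The immunoproteasome, the form of the proteasome that interferon induces, showed 0 of 5 genes past the test between A and D. Of all genes 16% were higher and 12% lower in that comparison. Psmb8 read 9.96 ± 0.11 in group A and 10.14 ± 0.18 in group D, and Psmb10 9.08 ± 0.39 in group A and 9.37 ± 0.13 in group D (SD, n = 3 each). Psmb9, the neighbour of Tap1, read 10.47 ± 0.04 in group A, 9.87 ± 0.17 in B and 10.09 ± 0.28 in group D. It was 0.60 higher in A than in B (limma, adjusted p = 0.00645), while A minus D was 0.37 (adjusted p = 0.0856, and 0.22 without D2). The activator subunits Psme1 and Psme2 differed between A and D by -0.08 and 0.14.

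Among genes that trim peptides 5 of 8 fell in group A against D and 0 rose, beside 12% and 16% of all genes. The calls of Blmh and Ide were lost on the values as deposited (limma adjusted p = 0.0931 and 0.128). They were also lost with only groups A and D in the fit (limma adjusted p = 0.0716 and 0.0827). That of Ide was lost as well without the variance trend or without A2, while its other probe sets gave -1.04 and -1.17. Erap1, the aminopeptidase that shortens peptides inside the endoplasmic reticulum, averaged 8.75 ± 0.08 in group A and 9.64 ± 0.34 in group D (SD, n = 3 each), without overlap. Its difference was -0.88 (SE 0.15, limma adjusted p = 0.00132), and a second bright Erap1 probe set gave -1.53. Tpp2, a cytosolic peptidase, was 1.17 lower (-1.17, limma adjusted p = 0.0049) in A than in D and -1.78 in A against B. Thop1, which degrades peptides in the cytosol, rose by 1.00 in A against B (limma adjusted p = 0.0256), a call that was lost without A1 or without any 1 array of group B.

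Of the chaperones that fold the heavy chain and hold it for loading, 4 of 6 fell in A against D and 0 rose. Among all genes 12% fell and 16% rose. Canx (calnexin) read 9.07, 9.39 and 9.25 on the A arrays against 10.01, 9.93 and 9.87 on the D arrays, a difference of -0.70 (SE 0.11, limma adjusted p = 0.000695). Its 2 other probe sets gave -1.52 and -3.59, so the size depends on the probe set. Pdia3 (ERp57, a partner of tapasin in the loading complex) fell by 0.63 (limma adjusted p = 0.000389) and Uggt1, which tests the folding of glycoproteins, by 1.41 (adjusted p = 0.00134). Calr (calreticulin), which also sits in the loading complex, differed by 0.25, or 0.03 without D3, and did not pass (adjusted p = 0.351). The calls of Canx and Pdia3 were lost on the values as deposited, where their differences were -0.75 and -0.68 with adjusted p = 0.0813 and 0.119.

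Among genes for entry into and exit from the endoplasmic reticulum 2 of 8 rose and 1 fell in A against D. The shares of all genes were 16% and 12%. Syvn1, a ubiquitin ligase of that compartment, was 0.73 higher in A than in D (limma adjusted p = 0.00882, and 0.0604 on the values as deposited).

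Of 12 regulators of class I transcription 4 rose in A against D and 0 fell, beside 16% and 12% of all genes. The calls of Rfx5, Rela and Nfkb1 were lost on the values as deposited (limma adjusted p = 0.0936, 0.117 and 0.0686). That of Rfx5 was also lost with only groups A and D in the fit (limma adjusted p = 0.0767). Nlrc5, the main transactivator of class I genes, read 5.11 ± 0.20 in group A, 5.08 ± 0.27 in B, 5.42 ± 0.23 in C and 5.35 ± 0.53 in group D (SD, n = 3 each), and passed no comparison. Irf1 differed by 0.06 between A and D. Irf2, which binds the same elements as Irf1, read 8.73, 9.10 and 8.86 on the A arrays against 7.69, 7.75 and 8.13 on the D arrays, 1.04 higher (limma adjusted p = 0.000334). Creb1 was lower in A than in B, by -1.47 (limma adjusted p = 0.00369).

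In the interferon list, which holds receptors, kinases and induced genes, 2 of 19 rose and 5 fell in A against D. Over all genes 16% rose and 12% fell. Jak2, a kinase of the interferon gamma receptor, read 4.92, 4.08 and 5.43 on the A arrays against 7.0, 6.57 and 7.69 on the D arrays, a difference of -2.28 (SE 0.31, limma adjusted p = 0.00031). The interferon-induced genes did not go one way: Gbp2 and Mx1 were lower in A than in D, by -1.82 and -1.42, and Irf7 was higher by 1.09 (limma adjusted p = 3.68e-05, 0.000283 and 0.00213). Ifngr2, a chain of the interferon gamma receptor, rose by 0.81 (limma adjusted p = 0.00169) on its brightest probe set, a call lost on the values as deposited (0.79, adjusted p = 0.0827), and a second one gave -0.31. Against group B the differences were -2.62 for Jak2, -1.59 for Gbp2, -1.50 for Mx1, 1.23 for Irf7 and 1.00 for Ifngr2. Oas1a was 1.19 higher in A than in B (limma adjusted p = 0.0173), which was lost without A3 or without B1. With values under a linear signal of 32 raised to 32 its difference was 0.21 (limma adjusted p = 0.407).

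Cd8a, a chain of the T cell coreceptor for class I, read 8.74, 8.31 and 8.28 on the A arrays against 9.24, 8.94 and 9.27 on the D arrays. It fell by 0.71 (limma adjusted p = 0.0165), a call lost without A2 or A3, at adjusted p = 0.0694 and 0.0653, on the values as deposited (0.102) and without the variance trend (0.0576). A second bright Cd8a probe set gave -1.02 (limma adjusted p = 0.00213). Cd8b, the other chain, differed by -0.36 (adjusted p = 0.367). Fcgrt, the class I like receptor that carries milk antibody across the gut of suckling rats, read 9.41, 9.50 and 9.41 on the A arrays against 9.02, 8.73 and 7.62 on the D arrays. It was 0.98 higher (limma adjusted p = 0.0208), or 0.56 without D3. This call against D was lost without any 1 array of group A, on the values as deposited and with the floor of 32. It was also lost without the variance trend and with only groups A and D in the fit. In these fits adjusted p lay between 0.0528 and 0.115. In A against B Fcgrt was 1.12 higher (limma adjusted p = 0.00662, and at most 0.0312 under the alternatives). Mr1, another class I like gene, passed downward in A against D. But it was within background on all arrays of group A and above it on only 2 of group D.

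**Figure D5:**
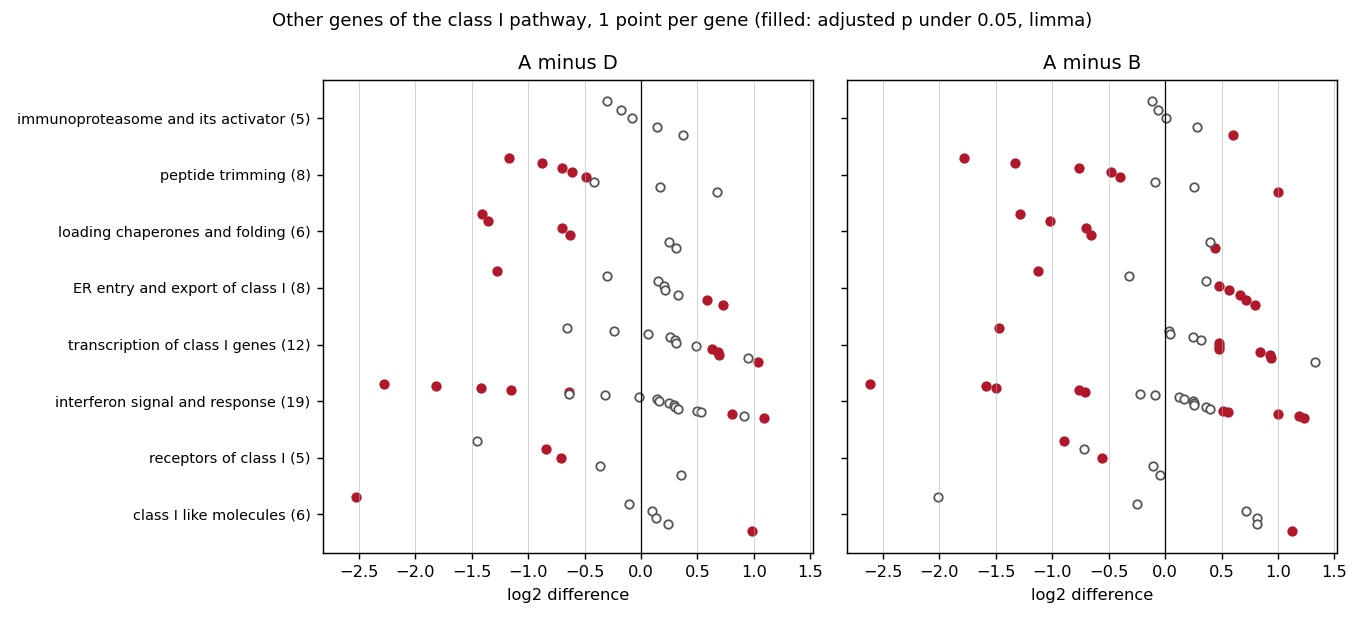
Log2 differences (horizontal axes) of the 69 other genes of the class I pathway, A minus D and A minus B, in rows by role with the number of genes measured; filled points passed an adjusted p under 0.05 in the limma fit. Each gene is shown by its brightest probe set only. Filled points of the peptide trimming and chaperone rows lie mostly below 0. The 4 filled points of the 12 transcription genes lie above 0 in A minus D, where 16% of all genes were higher and 12% lower.

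Cell markers and an RNA measure also differed between groups. Ptprc, the pan-leukocyte antigen, had a linear signal of 492, 622 and 642 on the A arrays, 1746, 1805 and 1760 on the B arrays, 1945, 1682 and 2164 on the C arrays, and 956, 949 and 1851 on the D arrays, so that D3 lay with B and C. The 5 smooth muscle markers summed to between 371 and 782 on the 9 arrays of A, B and C, against 5366, 5229 and 551 on the D arrays. D1 and D2 lay far above all other arrays. The summed signal of 6 T cell markers was 4790 to 6120 in group A and 4470 to 5202 in group D. In group B that sum was 4242 to 4973 and in group C 4933 to 5355. That of 3 B cell markers was 1430 to 1666 on the A arrays, below the 2164 to 2393 on the B arrays and the 2110 to 2447 on the C arrays, with 1539 to 1824 on the D arrays. For 4 neutrophil markers it was 329 to 473 in group A and 90 to 114 in group D. S100a8, S100a9 and Mmp9 had higher means in A than in D, and Cxcr2 a lower one. The neutrophil sum was 88 to 119 in group B and 103 to 240 in group C. Only 2 of the 4 were above background on every array. For 5 macrophage and dendritic cell markers the sum was 1686 to 2058 in group A and 915 to 1996 in group D. It was 1051 to 1246 in group B and 958 to 1121 in group C, and D3 was the lowest array. Linear sums mostly follow the brightest markers. Of these markers Cd68 and Csf1r had higher means in A than in D, and Itgax, Flt3 and Cd14 lower ones. Of the T cell markers Cd3e, Cd3d and Cd5 had higher means in A than in D, and Cd3g, Cd4 and Cd28 lower ones. The ratio of 3' to 5' signal of Hexokinase, which grows as RNA degrades, was 2.84 to 4.96 in group A and 1.84 to 2.53 in group D. In group B it was 1.62 to 3.24, overlapping group A, and in group C 1.82 to 2.62. For GAPDH it was 1.21 to 1.53 in group A and 1.06 to 1.22 in group D, with overlap. For beta-actin it was 1.37 to 1.79 in group A and 1.30 to 1.91 in group D, also with overlap. In group B GAPDH gave 1.10 to 1.12, below group A, and beta-actin 1.44 to 1.79. In group C they gave 1.10 to 1.28 and 1.60 to 1.74. The part of these measures in the differences of the class I genes was not tested.

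Likeness was taken as the Pearson correlation over the 12 arrays, a description in which groups and array effects are shared by all points, among 8965 probe sets with 1 symbol and a mean of at least 6. The genes most like RT1-CE10 were Med15, Tirap, Gigyf1, Macroh2a1 and Slc35c2, with r between 0.87 and 0.932. Med15 followed the same arrays on a far smaller scale, with 8.08, 8.04 and 8.02 on the A arrays, 7.63, 7.56 and 7.55 on the B arrays, 7.90, 7.76 and 7.96 on the C arrays, and 7.56, 7.34 and 8.0 on the D arrays. Tap1 was most like Faap20, Znfx1, Litaf, Spint2 and C130050O18Rikl (r 0.944 to 0.956), and B2m most like Ggh, Tfec, Ap1s2, Chuk and Gmfg (r 0.858 to 0.885). None of these 15 genes lies on chromosome 20, which holds the RT1 complex.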

How the data were processed

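RNA of mesenteric lymph nodes was hybridised to 12 arrays, 3 in each of 4 groups. Per the submitters' processing notes the tool was MAS5, and each deposited value is a signal intensity of 1 probe set on a linear scale. The array medians ran between 19.3 and 38.5, and no source used here says whether the values were scaled to a target. The 30 zeros took the smallest positive value. Log2 intensities were quantile normalized and values under 1 raised to 1. After 57 control probe sets were left out, 31042 were tested, of which 20826 carry 1 symbol, 436 several and 9780 none here.

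Groups were compared with limma 3.58.1 in R 4.3.3 on all 12 arrays (1 mean per group, variance trend, two-sided, Benjamini-Hochberg over all probe sets, threshold 0.05). The p-values measure the spread between these pups, not between dams or litters. In groups A and B the dam ate the CLA diet. Whether the pups of a group shared 1 litter is not given, so litter and group may coincide. The number of arrays limits the precision, and 3 against 3 allows an exact permutation p of 0.1 at best. The steps were tested on simulated data. The genes and lists were chosen with earlier results of these data known. Named genes were every probe set of the 10 genes, fixed pathway genes whatever their values, up to 5 rises and 5 falls per comparison among pathway genes past the threshold, other RT1 class I probe sets past it, and the 5 genes most correlated with RT1-CE10, B2m and Tap1. The main setting, quantile normalization, was chosen with the values under it known. Alternatives were other scalings, floors, filters, variance models, sample sets, thresholds, a replicate block and leaving out each array.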

Additional observations from a re-analysis of the deposited data

How the results depend on the processing

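The count of pathway genes past the threshold in A against D, 27, was 14 on the values as deposited (2 up and 12 down), 32 with 75th percentile centring (14 up and 18 down), 12 at an unadjusted p under 0.05 with a fold of 2, and 41 of 104 when every probe set was counted. Leaving out 1 array gave 21 to 29. In A against B, 38 became 13 at the unadjusted p with a fold of 2. The split there was 20 up and 18 down, 30 and 7 as deposited, and 28 and 15 with centring. The counts of 0 became 40, all down, as deposited and 2 at the unadjusted p with a fold of 2 in C against D, and 1 at that p and fold in B against C. As deposited the median of all probe sets was itself -0.70 in C minus D, -0.55 in B minus D and 0.39 in A minus B. Leaving out 1 array gave 0 to 12 in B against D and 0 to 18 in C against D, the highest without D3 in both. With the replicate number as a replicate block the counts were 27, 38 and 0 as before. The numbers were not taken to pair the pups: arrays with the same number had correlations of -0.015 to 0.083, although 8 of 12 arrays correlated best with their own number. Leaving out 1 array moved some class I differences by more than the pooled SD within groups. RT1-CE10 B minus D went from -1.19 to -0.17 without D3 (pooled SD 0.91). RT1-CE16 B minus D went from -2.07 to -0.92 without B1 (pooled SD 1.05). All differences of the 17 probe sets were followed under these settings. Among those whose groups did not overlap, B2m 1371440_at in A minus B was 0.25 as deposited, and B2m 1367595_s_at in C minus D was -0.70 as deposited and -0.04 with centring, where the median of all probe sets was -0.06; no other such difference changed sign. The cause of these changes was not tested.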
